A study of Homo sapiens with 5 samples.

Results

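The genes described here are 8 annotated genes at 3 loci where neighbouring genes share exons, out of 58929 genes in the deposited files. They are INO80B, WBP1 and the readthrough gene INO80B-WBP1 on chromosome 2, NME1, NME2 and the readthrough gene NME1-NME2 on chromosome 17, and the overlapping pair SNRPN and SNURF on chromosome 15. They were picked by symbol from a list drawn up after values of these same libraries had been seen, so their differences between libraries are given as descriptions and no p-value was computed for them alone. The rule holds no numerical threshold, so no gene lies just inside or just outside it.

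The libraries come from A549, an established human lung adenocarcinoma line, and the design text of the series calls them ribosome footprints. Per the labels' protocols, ribosomes were halted on mRNA with cycloheximide (100 ug/mL, 15 min), and RNA protected by single ribosomes was sequenced after depletion of ribosomal RNA. The labels also give total RNA as the molecule, and the protocols describe a fragmented input. The 4 groups were stable RBMS1 knockdown (2 libraries, named sh1088 and sh1196), the knockdown control (1 library, here the sh control), RBMS1 overexpression (1 library, named R1A) and the overexpression control (1 library, named pCDH). RBMS1 is an RNA-binding protein. The labels do not say whether a library is 1 clone or a pool of cells, nor which promoter drives the RBMS1 construct, nor whether sh1088 and sh1196 were grown as separate cultures, so their spread may be technical.

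Total expected counts were between 10327747 and 13980843 per library, and the mean fragment lengths that the deposited lengths imply were between 40.9 and 52.3 nucleotides. RBMS1 itself was at 18.3 and 13.4 CPM in sh1088 and sh1196, against 31.0 CPM in the sh control, and at 36.9 CPM in R1A, against 24.7 CPM in pCDH, which is the direction of the labels. The 10 markers listed for A549, not all of them specific to epithelium, summed to between 8012 and 13721 CPM per library, with ALDH1A1, KRT7 and NQO1 the highest. ALDH1A1 alone had a mean of 5736 CPM. The epithelial genes KRT7, KRT8, KRT18, CDH1 and EPCAM had means of 1200, 781, 659, 71.5 and 10.3 CPM. The summed level of 5 immune markers was between 6.85 and 21.5 CPM, that of 4 endothelial markers between 0.155 and 1.18 CPM, and that of 5 fibroblast markers between 1.62 and 9.81 CPM. Nearly all of the immune sum was CD14, at 6.85 to 20.8 CPM. CPM here means library-scaled counts after trimmed mean of M-values (TMM) scaling across the 5 libraries.

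A readthrough transcript begins at the promoter of one gene, runs past its normal end and is spliced into exons of the gene downstream. Nearly all of its sequence is then also the sequence of its parents, and a short read from a shared exon names no gene by itself. INO80B is a subunit of the INO80 chromatin remodelling complex, which slides and exchanges nucleosomes, and WBP1 is a WW domain binding protein. NME1 and NME2 are nucleoside diphosphate kinases, which pass phosphate between nucleoside triphosphates; NME1 was found as a candidate suppressor of metastasis. SNRPN encodes SmN, a relative of the core spliceosomal protein SmB, and lies in an imprinted domain expressed from the paternal copy. SNURF is a small upstream reading frame carried on the same transcripts as SNRPN, so that a single mRNA can encode both proteins.

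In GENCODE release 29 (GRCh38), whose transcripts matched those of the files by name for all 8 genes, every gene lies on the plus strand. INO80B spans chr2:74455023-74457960, WBP1 spans chr2:74458329-74460891, and INO80B-WBP1 spans chr2:74455088-74460884, from the first to the second. NME1 spans chr17:51153536-51162428, NME2 spans chr17:51165435-51171747, and NME1-NME2 spans chr17:51153590-51171744. SNRPN spans chr15:24823637-24978723 and holds SNURF at chr15:24954986-24977850 inside it. The files' own genome build is not given in the sources used here. All 3 transcripts of NME1-NME2 are annotated as protein-coding, while both transcripts of INO80B-WBP1 are annotated as targets of nonsense-mediated decay. The starts overlap as well: the RefSeq window around the start of NME1-NME2 is identical to that of NME1, and the SNURF window is identical to 1 of the 4 SNRPN windows. The INO80B-WBP1 window is offset by 64 nucleotides from that of INO80B.

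The joins between exons that occur in no other gene are the places where a read can name a readthrough gene, and they are shown for that reason, with joins private to the parent or partner genes for comparison. Each line gives the last 15 bases of the upstream exon in lower case and the first 15 bases of the downstream exon in capitals, 5′ to 3′ on the plus strand, read from GENCODE 29 transcripts.
INO80B-WBP1-201: agactgcggcgaccaCTTCGAGAGCTGTGC
INO80B-WBP1-202: cccccttttggctacCTTCGAGAGCTGTGC
WBP1-201: gcgccgcaacagcagCTTCGAGAGCTGTGC
NME1-NME2: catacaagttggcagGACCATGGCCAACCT
NME1-201: catacaagttggcagGAACATTATACATGG
NME2-207: gcactttagtgccagGACCATGGCCAACCT
SNURF-201: ccaagcaaaaaccagACAATGTAATAAAAA
SNURF-203: ccaagcaaaaaccagACTGTTGGCAAGAGT
SNRPN-202: ccaagcaaaaaccagGCTCCATCTACTCTT

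The NME1-NME2 join is carried by all 3 of its transcripts, lies in their coding sequence, and links position 51161272 of chromosome 17 to position 51166827. Its left side is the last 15 bases of an NME1 exon and its right side the first 15 bases of an NME2 exon, so that each side alone also occurs in a parent, as the NME1-201 and NME2-207 lines show. The INO80B-WBP1 joins link position 74457538 or 74457860 of chromosome 2, both inside INO80B exons, to the WBP1 exon that begins at 74459643. SNURF-201 leaves the exon that ends at position 24968082 of chromosome 15, which SNRPN also uses, for an exon of its own that begins at 24968795.

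NME1 and NME2 are paralogs, so their coding sequences were compared to see whether they too limit how well footprints can be told apart. Over the 459 bases of the coding sequences of NME1-203 and NME2-207, 80.8% of positions were identical, and the longest identical run was 23 bases, shorter than the mean fragment of every library. The following stretch of coding positions 204 to 263 holds that run and is shown with the 5 bases that differ in capitals. It crosses a splice join, and lies within chr17:51160057-51161194 for NME1 and chr17:51168319-51169971 for NME2.
NME1 coding 204 to 263: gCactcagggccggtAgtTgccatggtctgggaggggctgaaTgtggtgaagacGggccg
NME2 coding 204 to 263: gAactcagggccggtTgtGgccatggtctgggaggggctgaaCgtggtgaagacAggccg

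To count how much of each gene can be told from every other, all windows of 46 bases, close to the mean fragment length of the sh control, were read from the transcripts of GENCODE 29. In INO80B-WBP1, 90 of 2040 windows (4.41%) occurred in no other gene, against 42.2% in INO80B and 68.0% in WBP1. In NME1-NME2, 39 of 1263 windows (3.09%) were private, against 82.2% in NME1 and 76.7% in NME2. In SNURF the share was 35.4%, against 73.5% in SNRPN, but most private SNURF windows belong to SNURF-202, and SNURF-201 holds only 35 private windows of 286. The shares of INO80B, WBP1, NME1 and NME2 also pool all their transcripts, some with retained introns. Single coding transcripts differed: INO80B-201 was at 13.6%, WBP1-201 at 22.5%, NME1-201 at 30.4% and NME2-201 at 14.7%. Higher shares were held by WBP1-204 (48.8%) and NME1-203 (58.1%). With windows of 41 or 52 bases, the shortest and longest mean fragments, the private share of INO80B-WBP1 was 3.92% and 5.00%, and that of NME1-NME2 2.69% and 3.56%. Outside the loci, NME2 shared 46 windows with the pseudogene NME2P1, which had between 0 and 13 expected counts per library. SNRPN shared 455 windows (11.7%) and SNURF 261 windows (23.1%) with AC124312.1, which had 0 and 18.0 expected counts in sh1088 and sh1196, against 28.9 in the sh control, and 4.52 in R1A, against 0.67 in pCDH. SNRPN also shared 96 windows with SNHG14, the long noncoding transcript of the same imprinted domain.

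**Figure D1:**
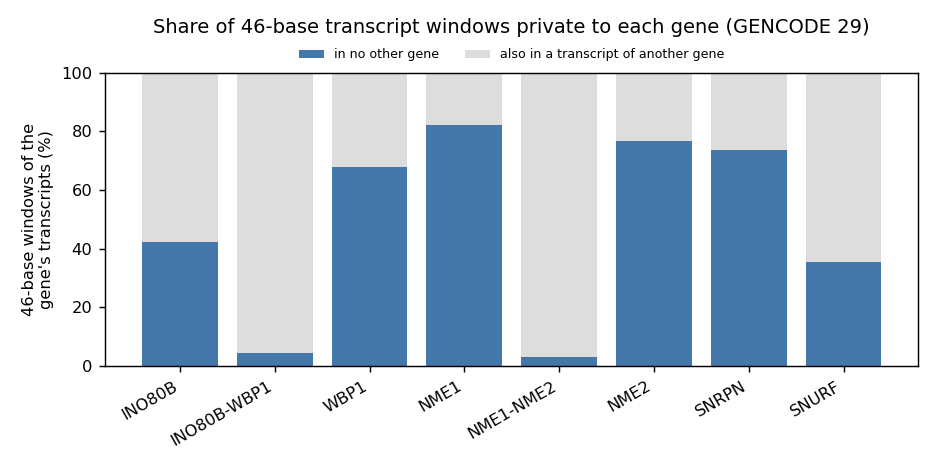
Bars give, for each of the 8 genes, the percentage of its 46-base transcript windows that occur in no other GENCODE 29 gene (blue) and that also occur in another gene (grey). The readthrough genes INO80B-WBP1 and NME1-NME2 stand at 4.41% and 3.09%, below every other member.

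The deposited files carry 2 estimates for each gene from RSEM, a program that shares each ambiguous read among the transcripts it could come from. The expected count sums the fractions of reads credited to a gene at the most likely abundances, so it need not be a whole number. The posterior mean count is the average over splits drawn by sampling. Its posterior standard deviation (SD) measures how uncertain the split is within a library. A gene at an expected count of 0 here can have had its shared reads assigned elsewhere, so a fold fitted against such a 0 is not read as a size. Both estimates are given below because they part company at these loci. Over the 8 genes and 5 libraries, the expected count lay more than 1 posterior SD from the posterior mean in 16 of 40 values and more than 2 posterior SD in 3 of 40, all 3 at the INO80B locus of the sh control.

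INO80B, the remodeller subunit, had 221 and 301 expected counts in sh1088 and sh1196, against 3.66 in the sh control. In R1A it had 127 expected counts, against 612 in pCDH. The sh control thus stood far below the other 4 libraries, and the largest value was that of pCDH. The posterior means were closer together: 235 ± 17.4 and 322 ± 21.0 in sh1088 and sh1196, against 41.5 ± 13.2 in the sh control (posterior SD). They were 145 ± 14.4 in R1A, against 592 ± 14.4 in pCDH.

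INO80B-WBP1 had 250 and 249 expected counts in sh1088 and sh1196, against 354 in the sh control. It had 165 expected counts in R1A, against 0 in pCDH. By posterior mean the readthrough gene was at 220 ± 30.1 and 206 ± 35.3 in sh1088 and sh1196, against 265 ± 35.3 in the sh control, so that intervals of 1 posterior SD overlapped between either knockdown library and the sh control. In R1A it was at 122 ± 27.3, against 40.3 ± 27.8 in pCDH, where the SD was 69.0% of the mean.

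WBP1, the downstream gene, had 60.4 and 73.2 expected counts in sh1088 and sh1196, against 229 in the sh control. It had 21.4 expected counts in R1A, against 250 in pCDH. Both controls were above all 3 libraries with altered RBMS1, and this order held for the posterior means, 75.5 ± 15.7 and 95.7 ± 16.9 against 280 ± 24.95, and 46.1 ± 14.9 against 230 ± 14.2. WBP1 is the member of this locus with the largest share of private windows over all transcripts, 68.0%, but WBP1-201 alone held 22.5%.

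The split within the INO80B locus differed between libraries. Of the locus's expected counts, INO80B-WBP1 held 47.0% in sh1088 and 39.9% in sh1196, against 60.4% in the sh control, and 52.7% in R1A, against 0% in pCDH. The exact binomial 95% intervals were 42.8 to 51.4% and 36.1 to 43.9% in the knockdown libraries against 56.2 to 64.3% in the sh control, and they cover counting error only, not the uncertainty of the split. INO80B held 45.0% ± 4.74 of the locus in knockdown (SD, n = 2), against 0.624% in the sh control. By posterior mean the readthrough share was 37.3% ± 6.01 in knockdown (SD, n = 2), against 45.2% in the sh control, a difference of -7.95 points that is within 2 SD of the knockdown libraries. The leading gene by expected count was INO80B-WBP1 in sh1088, the sh control and R1A, and INO80B in sh1196 and pCDH. By posterior mean INO80B led in sh1088, sh1196, R1A and pCDH, and WBP1 in the sh control, so that the readthrough gene led in none.

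The deposited gene length gives a further reading of INO80B-WBP1, since it is the mean length of its 2 transcripts weighted by their estimated abundance. It came to 1981 and 1914 nucleotides in sh1088 and sh1196, against 1905 in the sh control, and 1943 in R1A. By that length, the longer transcript, INO80B-WBP1-202 of 2040 nucleotides, was estimated at 84.0% and 66.2% of the gene's transcripts in sh1088 and sh1196. The estimate was 63.7% in the sh control and 73.9% in R1A. In pCDH the length gives 100%, but at an expected count of 0 it measures nothing. These estimates come without an interval, and only 45 windows of 46 bases in INO80B-WBP1-202 occur in no other gene. The 2 knockdown libraries differed from each other more than sh1196 did from the control.

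NME1, the upstream kinase, had 2442 and 2866 expected counts in sh1088 and sh1196, against 2737 in the sh control, and 2540 in R1A, against 1997 in pCDH. NME2, the downstream kinase, had 5744 and 4926 expected counts in sh1088 and sh1196, against 7150 in the sh control, and 4753 in R1A, against 4619 in pCDH. NME2 led the locus in all 5 libraries by expected count, by posterior mean and per length in TPM. Posterior SDs were at most 2.15% of the mean for NME1 and 1.42% for NME2, so the uncertainty of the split is small for both parents.

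NME1-NME2, which joins the coding sequences of both kinases, had 167 and 1287 expected counts in sh1088 and sh1196, against 0 in the sh control. It had 1575 expected counts in R1A, against 2937 in pCDH. The posterior means were 218 ± 79.6 and 1280 ± 94.2, against 63.8 ± 38.8 in the sh control, and 1560 ± 95.9 in R1A, against 2916 ± 91.7 in pCDH. The pCDH control was highest and the sh control lowest, so the controls themselves were farther apart than any library was from its own control. The knockdown libraries also differed from each other, by more than the posterior SD of either.

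As a share of the NME locus, NME1-NME2 held 1.995% in sh1088 and 14.2% in sh1196, against 0% in the sh control. It held 17.8% in R1A, against 30.8% in pCDH. The mean over the knockdown libraries was 8.09% ± 8.62 (SD, n = 2), and its difference from the sh control, 8.09 points, was smaller than that SD. The posterior means gave nearly the same shares, 2.61% and 14.1% against 0.645%, and 17.6% against 30.5%. Every transcript of the gene crosses the single join printed above, which the deposited gene counts do not report on its own.

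SNRPN, the Sm protein gene, had 264 and 318 expected counts in sh1088 and sh1196, against 430 in the sh control, and 175 in R1A, against 439 in pCDH. In TMM-scaled CPM it was at 27.5 and 24.7 in sh1088 and sh1196, against 53.5 in the sh control, and at 14.7 in R1A, against 25.2 in pCDH. Each library with altered RBMS1 was below its own control in CPM, while in TPM sh1196 (12.4) lay above the sh control (7.89). SNURF, as a gene entry of its own, had 157 and 133 expected counts in sh1088 and sh1196, against 99.9 in the sh control, and 214 in R1A, against 0 in pCDH. Of its 46-base windows, 64.6% also occur in SNRPN. Reads from the SNURF reading frame can thus be counted under SNRPN, and a 0 for the entry does not mean a frame without footprints. In TMM-scaled CPM SNURF was at 16.3 and 10.3 in sh1088 and sh1196, against 12.4 in the sh control, which lay between them, and at 18.0 in R1A, against 0 in pCDH. SNURF posterior means were 154 ± 11.1 and 135 ± 12.2 against 96.8 ± 12.4, and 217 ± 10.5 in R1A against 10.2 ± 6.31 in pCDH.

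SNURF held 37.3% and 29.5% of the locus's expected counts in sh1088 and sh1196, against 18.9% in the sh control, and 55.0% in R1A, against 0% in pCDH. The mean over knockdown was 33.4% ± 5.49 (SD, n = 2), and the difference from the sh control was 14.5 points. SNRPN led by count in sh1088, sh1196, the sh control and pCDH, and SNURF led in R1A. Per length the order differed: in TPM, SNURF was at 19.8 and 21.3 in sh1088 and sh1196, against 9.16 in the sh control, and at 34.9 in R1A, while SNRPN was at 7.38 and 12.4, against 7.89, and at 7.08. In pCDH, SNURF was at 0 TPM and SNRPN at 19.5 TPM. The deposited SNURF length in the sh control, 331 nucleotides, is that of SNURF-201 alone.

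**Figure D2:**
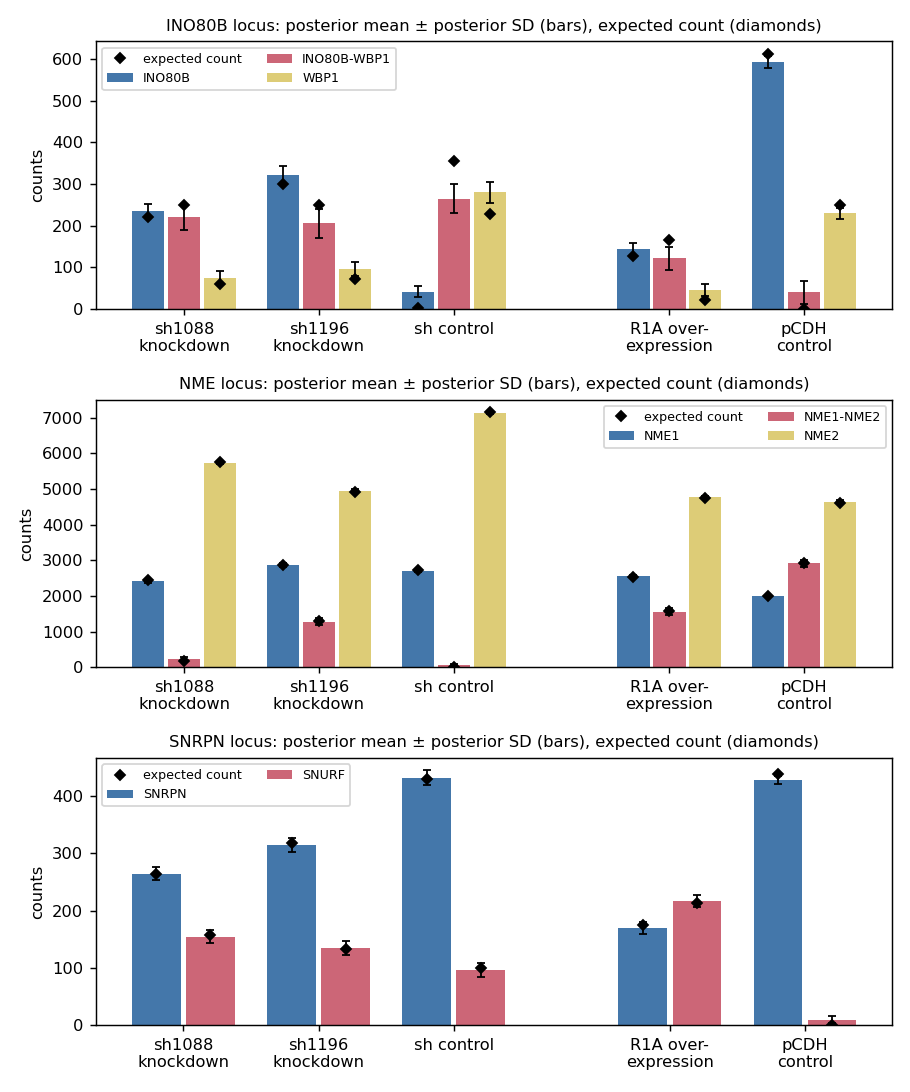
Bars are RSEM posterior mean counts with the posterior SD within a library as error bars, and diamonds are expected counts, for each gene (colour) in each of the 5 libraries (x axis). Measured in posterior SDs, the diamonds leave the bars most at the INO80B locus of the sh control, where INO80B has an expected count of 3.66 and a posterior mean of 41.5.

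**Figure D3:**
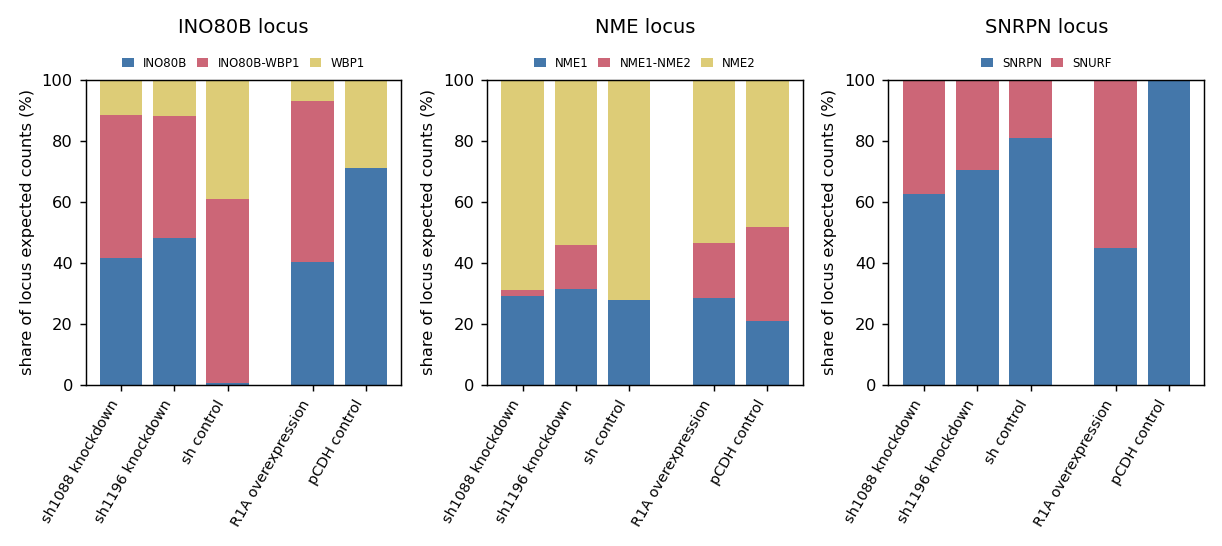
Stacked bars give the percentage of each locus's expected counts assigned to each gene in each of the 5 libraries. The readthrough gene (middle colour) takes 60.4% of the INO80B locus in the sh control and 0% in pCDH, and takes 0% of the NME locus in the sh control and 30.8% in pCDH.

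Summing a locus removes the split among its own genes. At the SNRPN locus it leaves the sharing of reads with AC124312.1 and SNHG14, which lie outside the sum. The summed expected and posterior mean counts differed by at most 0.01 counts at the INO80B and NME loci and by at most 2.15 counts at the SNRPN locus. The INO80B locus held 531 and 623 counts in sh1088 and sh1196, against 587 in the sh control, and 313 in R1A, against 862 in pCDH. The NME locus held 8353 and 9079 counts, against 9887 in the sh control, and 8867 in R1A, against 9553 in pCDH. The SNRPN locus held 421.0 and 451 counts, against 530 in the sh control, and 389 in R1A, against 439 in pCDH.

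On the TMM-scaled level, the INO80B locus was at 55.2 and 48.3 CPM in sh1088 and sh1196, against 73.1 CPM in the sh control, and at 26.4 CPM in R1A, against 49.5 CPM in pCDH. The order ran from the sh control at the top to R1A at the bottom, and the 95% counting intervals of pCDH, sh1196 and sh1088 overlapped. The NME locus was at 868.7 and 703.8 CPM in sh1088 and sh1196, against 1231 CPM in the sh control, and at 746.6 CPM in R1A, against 548.0 CPM in pCDH. No counting intervals overlapped there. The SNRPN locus was at 43.8 and 35.0 CPM, against 65.97 CPM in the sh control, and at 32.7 CPM in R1A, against 25.2 CPM in pCDH, and the intervals of sh1196 and R1A overlapped. The order of libraries depended on the scaling. In summed TPM the sh control was the lowest library at each locus, at 10.7 for INO80B, 441.9 for NME and 17.05 for SNRPN. In these cultures, fewer cells that express a gene, less RNA in each cell and fewer ribosomes on each mRNA cannot be told apart.

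**Figure D4:**
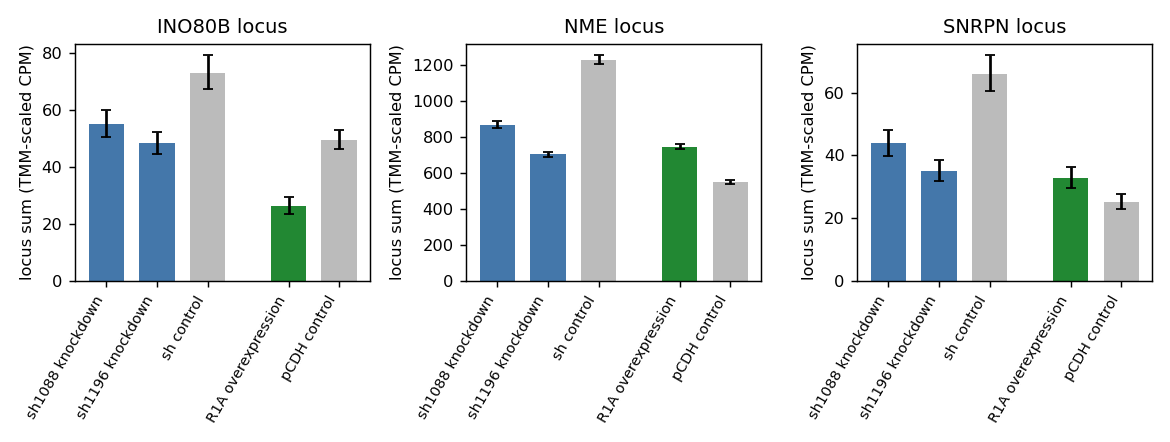
Bars give the summed level of each locus in TMM-scaled CPM per library, with exact 95% counting intervals. With this scaling the sh control is highest at all 3 loci, at 73.1, 1231 and 65.97 CPM, and pCDH is lowest at the NME and SNRPN loci. In summed TPM, not drawn here, the sh control is lowest at all 3 loci.

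For knockdown against the sh control, edgeR's quasi-likelihood fit over all genes gave log2 fold changes of the sums of -0.46 ± 0.44 for the INO80B locus, -0.61 ± 0.59 for the NME locus and -0.71 ± 0.44 for the SNRPN locus (SE). Each was below 0 for both sh1088 and sh1196, at -0.36 and -0.60 for the INO80B locus, -0.46 and -0.81 for the NME locus and -0.54 and -0.92 for the SNRPN locus. The sign depended on the scaling: in TPM the same changes were 1.12, 0.42 and 0.79, beside a median of 0.67 over all genes in TPM and of 0.07 with TMM scaling. Set against pCDH as the control, they were 0.08, 0.54 and 0.66.

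Several members gave larger values than the sums of their loci. INO80B had a log2 fold change of 5.54 ± 0.69 by expected count and 2.30 ± 0.53 by posterior mean (SE), and WBP1 -2.23 ± 0.46 and -2.15 ± 0.45. NME1-NME2, for which the sh control is at an expected count of 0, had 2.96 ± 1.01 by posterior mean. INO80B-WBP1 had -0.93 ± 0.44, SNRPN -1.01 ± 0.43, NME2 -0.83 ± 0.58, NME1 -0.48 ± 0.51 and SNURF 0.13 ± 0.52, and SNURF was above the control in sh1088 (0.44) and below it in sh1196 (-0.27). Of the 8 members, 0 passed an adjusted p of 0.05 with edgeR's quasi-likelihood test, beside 0% of the 14913 genes tested. Other fits did call members: INO80B passed with DESeq2, with library size scaling and without the filter on low counts, NME1-NME2 with library size scaling and without the filter, and WBP1 without the filter. At an unadjusted p under 0.05 there were 4 of 8 members, beside 5.87% of genes (876), and since the members were chosen with these contrasts in view nothing is read from that. Over all genes DESeq2 called 15 genes in knockdown and limma-voom 0.

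The authors' deposited table for knockdown lists INO80B at a log2 fold change of 5.57 with an adjusted p of 1.16e-12, and WBP1 at -2.24 with an adjusted p of 3.53e-05. In the authors' deposited table NME1-NME2 stands at 11.3 with an SE of 2.53 and an adjusted p of 0.00101, a value set against the expected count of 0 in the sh control. The other 5 members had adjusted p-values between 0.0702 and 0.944 in the authors' deposited table.

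Overexpression against pCDH compares 1 library with 1, so there is no replicate check and only counting intervals can be given. The log2 ratio of the sums was -0.90 for the INO80B locus (95% interval -1.09 to -0.71), 0.46 for the NME locus (0.42 to 0.50) and 0.39 for the SNRPN locus (0.19 to 0.59). In TPM they were -1.99, -0.13 and 1.07, beside a median of -0.71 over all genes in TPM. Set against the sh control, all 3 were below 0, at -1.49, -0.74 and -1.03.

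Among the members, INO80B had a log2 ratio of -1.71 (-1.99 to -1.42), WBP1 -2.98 (-3.72 to -2.36), SNRPN -0.76 (-1.02 to -0.50), NME1-NME2 -0.33 (-0.42 to -0.24), NME1 0.91 (0.83 to 1.00) and NME2 0.61 (0.55 to 0.67). By posterior mean, WBP1 was at -1.75. INO80B-WBP1 and SNURF, both at an expected count of 0 in pCDH, were 4.50-fold and 31.5-fold higher in R1A by posterior mean, with log2 ratios of 2.17 (1.65 to 2.73) and 4.98 (4.10 to 6.09). These intervals treat posterior means as counts and leave out the uncertainty of the split. In pCDH the posterior SD was 69.0% of the mean for INO80B-WBP1 and 61.9% for SNURF, so neither fold is read as a size. At least 2-fold higher in R1A were 2 of 8 members, beside 15.0% of 10840 genes with a mean of at least 5 CPM, and at least 2-fold lower were 2 of 8, beside 13.9%. These shares too are given without a reading, because the members were chosen with this contrast in view. The authors' deposited table lists SNURF at 10.7 (adjusted p 1.62e-10) and INO80B-WBP1 at 9.85 (adjusted p 2.57e-08). It also lists, in the authors' deposited table, INO80B at -1.55, WBP1 at -2.37 and NME1 at 1.14, with adjusted p-values of 8.4e-05, 9.39e-05 and 0.000204. The remaining members stand there at 0.35 for NME2, -1.05 for NME1-NME2 and -0.50 for SNRPN. These deposited values differ from the ratios above by unequal amounts, and the reason was not tested. What spread their adjusted p-values rest on is not known here, since 1 library against 1 gives none.

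To see how usual such shifts are, every gene symbol that joins 2 other symbols of the files was taken as a readthrough locus, and 70 loci had at least 100 expected counts in every library. The gene with the most expected counts differed between libraries at 19 of the 70 (27.1%), INO80B-WBP1 among them and NME1-NME2 not. The readthrough gene was at an expected count of 0 in at least 1 library at 39 loci, and at a posterior mean of 0 at none. The posterior mean is an average over sampled splits, so a value above 0 is not read as presence of the readthrough transcript. The share held by the readthrough gene ranged over a median of 11.3 points across the libraries. INO80B-WBP1, with a range of 60.4 points, ranked second, and NME1-NME2, with 30.8 points, ranked ninth. From the posterior means the ranges were 40.5 and 29.9 points, and the median was 10.0 points.

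Wide ranges were also found at 6 other loci, given in order of their range. ZFP91-CNTF held 6.59% and 36.0% of its locus in sh1088 and sh1196, against 0.733% in the sh control, and 17.1% in R1A, against 64.4% in pCDH. HNRNPUL2-BSCL2 held 45.7% and 71.7% in sh1088 and sh1196, against 21.0% in the sh control, and 55.9% in R1A, against 57.6% in pCDH. ARMCX5-GPRASP2 ranged over 44.7 points, COMMD3-BMI1 over 39.2, FMC1-LUC7L2 over 37.8 and ST20-MTHFS over 35.4 points. Readthrough genes at 0 numbered 27 and 18 of 70 in sh1088 and sh1196, against 26 in the sh control, and 21 in R1A, against 25 in pCDH. Among all genes with a posterior mean of at least 100 counts, the share whose posterior SD exceeded 5% of the mean was between 1.51% and 1.89% per library. The posterior SD of INO80B-WBP1 was between 13.3% and 22.3% of its mean in the libraries where it reached that limit. It was 69.0% in pCDH, where the posterior mean was 40.3 counts.

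**Figure D5:**
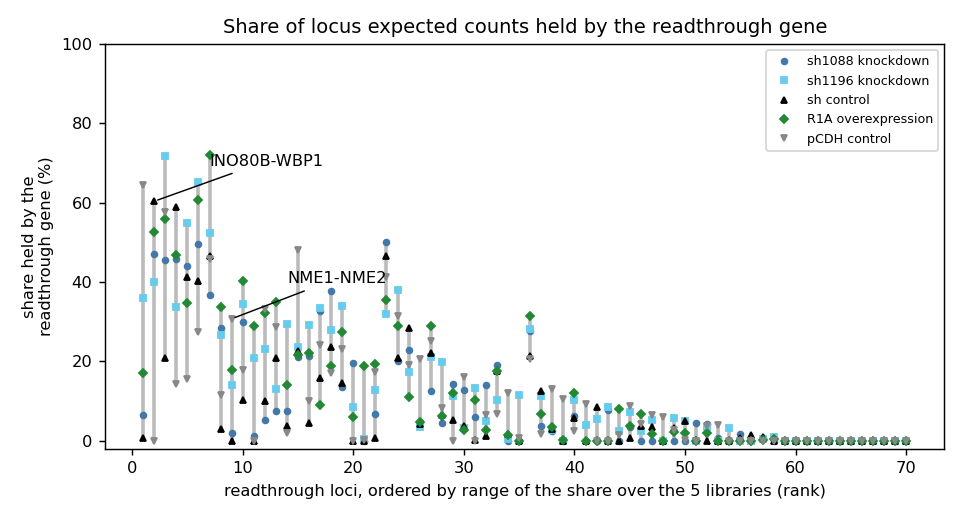
Each vertical line is 1 of 70 readthrough loci, ordered by rank on the x axis, and the points are the percentage of the locus's expected counts held by the readthrough gene in each of the 5 libraries. INO80B-WBP1 is second by range, at 60.4 points, and NME1-NME2 is ninth, at 30.8 points.

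The partners of the members were followed in lists of related genes, whose choice was not independent of these data. Of the 16 INO80 complex genes, 0 passed the knockdown test and the median log2 fold change was 0.08, beside 0.07 over all genes tested. ACTB, RUVBL2 and YY1, the members with the highest level, had -0.10, -0.0020 and 0.06. In R1A against pCDH, 2 of the 16 were higher by 2-fold or more, and 2, INO80B and TFPT, were lower by as much, beside 15.0% and 13.9% of all genes tested. Of the 12 genes of the NME and adenylate kinase list, 9 were tested in knockdown, 0 passed, and the median was -0.47, with NME4 at 0.25. In R1A against pCDH, 1 of 8 tested, NME7, was higher by 2-fold or more and 1, NME3, lower by as much, beside the same 15.0% and 13.9%.

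Of 20 Sm and LSm genes, which form the rings that hold spliceosomal and related RNAs, 0 passed in knockdown and the median was -0.19. SNRPD2, SNRPA and SNRPB had -0.41, 0.31 and 0.20, and in R1A 2 of 20 were higher by 2-fold or more and 2 lower, beside 15.0% and 13.9% of all genes. Of 13 genes that assemble those rings with SMN, 12 were tested, 0 passed, and the median was 0.07, while in R1A 3 of 11 tested were higher by 2-fold or more and 0 lower, beside those same shares. Of the imprinted domain around SNRPN, 17 of 21 listed genes were in the files and 9 were tested, with 0 called and a median of -0.46, while in R1A 3 of 5 tested, SNURF among them, were higher by 2-fold or more, beside 15.0% of all genes, and 0 lower. SNHG14, which runs on from the SNRPN transcript, was at 79.2 and 59.9 CPM in sh1088 and sh1196, against 97.8 CPM in the sh control, and at 113.7 CPM in R1A, against 20.7 CPM in pCDH. Its lowest library, pCDH, is the library in which SNURF is at an expected count of 0. SNURF shared windows of 46 bases only with SNRPN and AC124312.1, and SNHG14 shared windows with SNRPN. The part of SNHG14 in the SNURF values was not tested. UBE3A, the ubiquitin ligase gene at the far end of the domain, had a log2 fold change of -0.48 in knockdown. Of 8 genes of the WBP1 family and the neighbourhood of INO80B, 0 passed and the median was -0.15, while in R1A 4 of 7 tested were at least 2-fold lower, WBP1, MOGS and WBP1L among them, beside 13.9% of all genes.

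Patterns over the 5 libraries were compared with those of 12128 genes by the root mean square distance between centred log2 (CPM + 1) values, for the 4 members with at least 10 counts in every library. The genes nearest to NME1 were RBM7, RPL34 and CIAO2B, at distances of 0.0453 to 0.0472. Nearest to NME2 were HINT1, PRKAG1 and RF02125, at 0.0540 to 0.0652, and nearest to SNRPN were LRRC6, OLFM2 and HCFC1R1, at 0.0694 to 0.0779. The genes nearest to WBP1 were much farther away, at 0.274 for AC009133.6, 0.398 for IGF2 and 0.420 for SNORA23. These distances rest on 5 libraries and are a description.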

How the data were processed

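The expected count and posterior mean count of each gene, with its posterior SD (a signal in counts), TPM and FPKM were estimated with RSEM by the authors, per the file headers. Other tools listed, without their roles, in the submitters' processing notes are STAR 2.4.2, Bowtie and DESeq2 (RSEM is listed as 1.3.1). Which genome build and gene annotation they used is not stated in the labels. The log2 fold changes, their SE (signal) and p-values of the authors' comparison tables were used as deposited. FPKM values were not tested.

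The members and lists were chosen with earlier results of these data known. Expected counts were rounded and fitted over all genes with edgeR 4.0.16 (TMM, filterByExpr, quasi-likelihood, Benjamini-Hochberg at 0.05) in R 4.3.3, knockdown against the sh control, with 1 residual degree of freedom; the single control is taken to vary as the hairpin libraries do. Locus sums replaced their members in a second fit. Overexpression gives log2 ratios of TMM-scaled counts with exact conditional 95% intervals; for calls of 2-fold, genes at 0 were set to a floor of 3 counts. Intervals and floors hold only counting error, and PCR duplicates are not separate molecules. Alternatives used DESeq2 1.42.0, limma 3.58.1, posterior means, and log2(TPM + 1) with limma for genes with a mean TPM of at least 0.1. In 3 simulations of the knockdown comparison (14336 to 14399 genes), edgeR called 5% to 14% of genes changed 4-fold and 39% to 58% of those changed 8-fold. The simulations used a single dispersion, chosen for all genes and not estimated from these libraries, so these percentages depend on that choice. Members are named in every library; other loci were named by the width of the readthrough share, and list genes by mean CPM, except NME4, UBE3A, SNHG14, MOGS, WBP1L, TFPT, NME7 and NME3, which were chosen after their values were seen. Sequences and windows came from GENCODE 29, start-site windows from RefSeq (GRCh38.p14).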

Additional observations from a re-analysis of the deposited data

How the results depend on the processing

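No paired analysis was possible because the groups share fewer than 2 replicate numbers. Knockdown log2 fold changes of the INO80B, NME and SNRPN loci turned above 0 in TPM (1.12, 0.42 and 0.79) and against pCDH (0.081, 0.54 and 0.66), and with library size scaling for the INO80B locus (0.064). Leaving out a knockdown library gave -0.60 to -0.36, -0.81 to -0.46 and -0.92 to -0.54. Overexpression log2 ratios were -1.49, -0.74 and -1.03 against the sh control, and -1.99, -0.13 and 1.07 in TPM, and 0.31 for the NME locus with library size scaling. The INO80B-WBP1 share difference was -7.95 (posterior mean) and -24.1 points (TPM) in knockdown, and 34.4 and 29.3 points in overexpression; in TPM that of NME1-NME2 was -9.52 and that of SNURF 83.2 points in overexpression. Genes called in knockdown numbered 0 in the edgeR fit, with DESeq2's size factors, with limma-voom and with all 5 libraries in the fit. They numbered 27 with library size scaling, 102 without a filter, 3 with posterior means, 15 with DESeq2, 6 in TPM and 93 against pCDH. Members among them were INO80B with DESeq2 (adjusted p 5.61e-05), library size scaling (0.0063) and no filter (3.14e-08), NME1-NME2 with library size scaling (3.5e-06) and no filter (1.67e-13), WBP1 with no filter (0.0152), and SNURF (0.00786) and INO80B-WBP1 (0.00546) against pCDH, where both are at 0. Single members turned round too. Against the other control, knockdown gave -1.51 for NME1-NME2, -0.58 for INO80B, 0.064 for SNRPN, 1.07 for NME1, 0.90 for NME2 and 11.2 for INO80B-WBP1, the last fitted against a count of 0 and so no measure of size. Overexpression there gave 8.45 for NME1-NME2 (against a floor of 3 counts that stands for 0), 4.53 for INO80B, -0.70 for NME1, -1.18 for NME2 and -1.69 for INO80B-WBP1. In TPM, knockdown gave 0.25 for SNRPN, 0.63 for NME1, 0.24 for NME2 and 0.12 for INO80B-WBP1, and overexpression gave -0.030 for NME2. With library size scaling NME1 was at 0.044. SNURF in knockdown was between -0.27 and 0.44 with a library left out. The cause of these changes was not tested. The median of all genes in knockdown was 0.07, 0.62 with library size scaling and 0.67 in TPM; in overexpression it was 0.07, -0.08 and -0.71. The number of readthrough loci whose leading gene differs was 19, between 14 and 28 with other count minimums, 19 from posterior means, and 15 to 18 with each library left out, a setting added after seeing the data. Depth limits the INO80B and SNRPN loci, at 313 to 862 and 389 to 530 counts, more than the NME locus, at 8353 to 9887.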
